A study of Mus musculus with 3 samples.

Results

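The eicosanoid genes followed here were Ptgs1, Ptgs2, Alox5, Alox5ap, Alox15, Alox12, Lta4h, Ltc4s and Ltb4r1. They were found by their gene symbols in the 3 deposited gene tables and make up 9 of 17250 gene names. They encode both cyclooxygenases, 3 lipoxygenases, the activating protein of 5-lipoxygenase, the enzymes Lta4h and Ltc4s that use leukotriene A4, and the high-affinity receptor of leukotriene B4.

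BM cells were flushed from the femur, tibia, pelvis and humerus of C57BL/6 mice aged 6-8 weeks. Recombinant LECT2, a protein secreted by the liver, was given subcutaneously, with daily doses of 300 μg per kg over 0, 3 or 5 days. There was 1 RNA-seq library per time point, and the labels name no vehicle, other agent or genetic change for any of the 3 groups. The number of mice behind each library is not given in the sources used here, so no difference below has a replicate check and no test between conditions was possible. Marker genes of marrow were present in each library, with Elane, a protease of promyelocytes, at 923 to 1451 RPKM and Cd79a, a B cell receptor component, at 532 to 827 RPKM.

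Eicosanoids are lipid mediators made from arachidonic acid, which phospholipases release from membranes. Cyclooxygenases turn it into prostaglandin H2, from which synthases make prostaglandins and thromboxane. Alox5 works with its activating protein Alox5ap to make leukotriene A4. Lta4h turns that into leukotriene B4, a chemoattractant of neutrophils that acts through Ltb4r1, and Ltc4s joins it to glutathione to give the cysteinyl leukotrienes. Alox12 and Alox15 put oxygen at other carbons of the chain. In BM these enzymes belong mostly to myeloid cells, and Alox12 is best known from platelets. Ptgs2 differs from its paralog in that its transcription is readily induced by many stimuli.

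The 2 cyclooxygenase genes are shown with the sequence before their annotated starts, because they parted at 5 days. The sequences are from RefSeq (GRCm38.p6) and written on the plus strand, which is the coding strand of both genes. The first lies at chr1:150099781-150100030, and its capitals mark a GC box at -170 and a C/EBP palindrome at -69, counted from the annotated start.
Ptgs2, 250 bases before the start: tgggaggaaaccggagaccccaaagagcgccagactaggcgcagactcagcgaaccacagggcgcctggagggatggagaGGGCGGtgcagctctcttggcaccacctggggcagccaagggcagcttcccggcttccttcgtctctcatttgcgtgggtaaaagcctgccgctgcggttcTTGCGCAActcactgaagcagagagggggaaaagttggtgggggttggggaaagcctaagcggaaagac
A 28-base stretch at chr1:150100034-150100061, just after the start, holds a CRE half-site that begins at +14 and overlaps an E-box that begins at +17, both within the capitals.
Ptgs2, after the start: gtcaccactaCGTCACGTGgagtccgct
The same stretch of Ptgs1 lies at chr2:36230176-36230425 and held no match to any motif that was searched, so it has no capitals.
Ptgs1, 250 bases before the start: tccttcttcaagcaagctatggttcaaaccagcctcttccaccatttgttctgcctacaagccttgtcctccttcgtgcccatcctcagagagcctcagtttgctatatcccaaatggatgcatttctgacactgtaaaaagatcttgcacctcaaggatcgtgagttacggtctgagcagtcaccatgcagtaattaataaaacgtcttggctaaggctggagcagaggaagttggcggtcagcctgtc

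Windows of 300 bases, from 250 before to 50 after the start, were given for 7 of the 9 genes (Alox5ap and Alox15 had none). Both strands were searched for the CRE half-site TGACG, the full CRE TGACGTCA, the E-box CACGTG, the C/EBP palindrome TTGCGCAA, the GC box GGGCGG, the TATA box TATAAA, the kappa-B site and the CArG box. Of the 7 windows, the one of Ptgs2 alone held the CRE half-site (20.8% of all 32851 windows), the E-box (7.15%) and the C/EBP palindrome (0.183%). The GC box (35.7% of all windows) was in those of Ptgs2, Alox5, Alox12 and Ltb4r1. The full CRE (1.79%), the TATA box (13.6%), the kappa-B site (8.46%) and the CArG box (1.63%) had no match in the 7 windows. A match is a description of the letters and says nothing on binding of a factor.

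The libraries held between 15146983 and 15523952 reads on genes, so depth was nearly equal. Levels are given in RPKM, the deposited reads scaled to gene length and to the total reads of the library. Changes are log2 ratios of RPKM + 0.1, a scale that understates the change of low genes. In parentheses stands a 95% interval from the 2 read counts, by the exact Clopper-Pearson method. It covers counting error only, and PCR copies of a molecule are counted as separate reads since the libraries had no molecular identifiers. The median ratio of all genes was 0.09 at 3 days and 0.31 at 5 days, and became 0.01 at both times with TMM scaling, which allows for differences in composition between libraries. The ratios also had a trend on gene length, with a fitted value at 5 days from -0.56 at the length of Ltc4s (588 bases) to 0.59 at that of Ptgs2 (4150 bases). For the 9 genes, ratios with TMM scaling or with this trend removed are added where they turn the sign.

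The levels of the 9 genes spanned a wide range, and their order was largely kept over the 3 time points. Alox5ap was highest in each library, at 802, 672 and 429.7 RPKM after 0, 3 and 5 days, above 99% of the genes with reads. Lta4h was next, followed by Alox15. Alox12 and Ltc4s were lowest, at 0.561 to 2.07 RPKM. Places changed between neighbours in 3 cases. Alox5 was below Ltb4r1 at 0 and 5 days and above it at 3 days, with counting intervals that did not overlap in any library. Ptgs2 was above Ptgs1 at 0 and 3 days and below it at 5 days, also without overlap. Ltc4s and Alox12 changed places after 0 days, but their intervals overlapped in each library and they could not be ordered at this depth. The summed level of the 9 genes was 1279, 1244 and 868 RPKM after 0, 3 and 5 days, with Alox5ap as the largest part in each library.

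**Figure D1:**
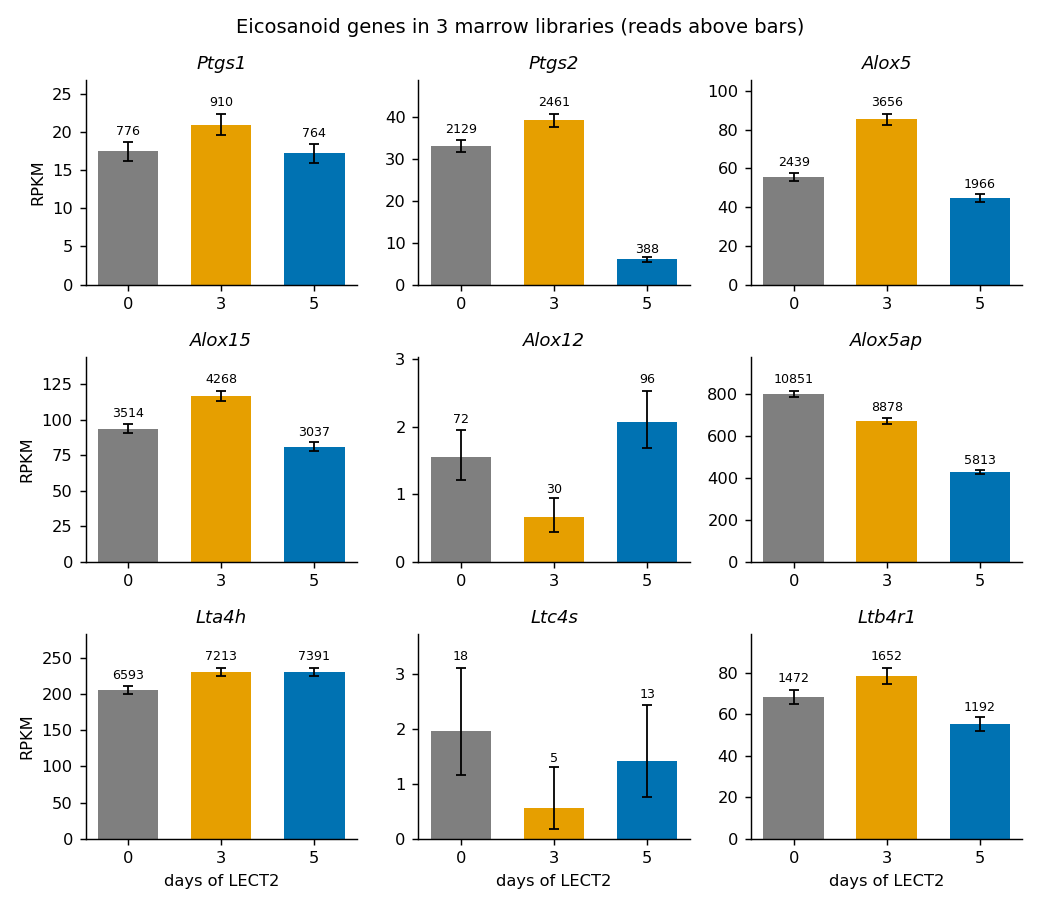
Level of each of the 9 eicosanoid genes (bars, RPKM, a separate linear axis for each gene) in the single library after 0, 3 and 5 days of LECT2, with 95% counting intervals as error bars and the reads above the bars. Ptgs2 stands at 33.0, 39.2 and 6.03 RPKM, and Alox12 has its lowest bar at 3 days, where most other genes have their highest.

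The cyclooxygenases were compared first. Ptgs2, the inducible enzyme (gene ID 19225, chr1:150100031-150108227, plus strand), had 2129, 2461 and 388 reads after 0, 3 and 5 days, or 33.0, 39.2 and 6.03 RPKM. It was similar in the first 2 libraries and far lower in the third. At 5 days it stood at 18.2% of the 0-day level, a log2 ratio of -2.44 (-2.62 to -2.30). Among the 11497 genes tested at 5 days, which had 1 RPKM or more in 1 of the 2 libraries or both, this ratio lay at percentile 1.01. Against 3 days it was -2.68 (-2.86 to -2.54), at percentile 0.413. Ranked by level among genes with reads, it moved from percentile 85.3 (0 days) to percentile 50.03 (5 days). At 3 days its ratio was 0.24 (0.16 to 0.33), and -0.07 with the length trend removed, so a direction at 3 days depended on that choice.

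Ptgs1, the constitutive enzyme (gene ID 19224, chr2:36230426-36252272, plus strand), had 776, 910 and 764 reads, or 17.5, 21.0 and 17.2 RPKM. The library after 3 days was the highest and the other two were alike. Its ratio was 0.26 (0.13 to 0.41) at 3 days. At 5 days it was -0.02 (-0.17 to 0.12), an interval that holds 0, but it was -0.33 with TMM scaling. The summed cyclooxygenase level was 50.5 RPKM at 0 days and 23.2 RPKM at 5 days, and on the deposited scale nearly all of this difference lay in Ptgs2. Its share of this sum was 65.4%, 65.1% and 26.0% after 0, 3 and 5 days. The shift in share does not depend on how the libraries are scaled to each other, and in reads it ran from 73.3% and 73.0% to 33.7%.

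**Figure D2:**
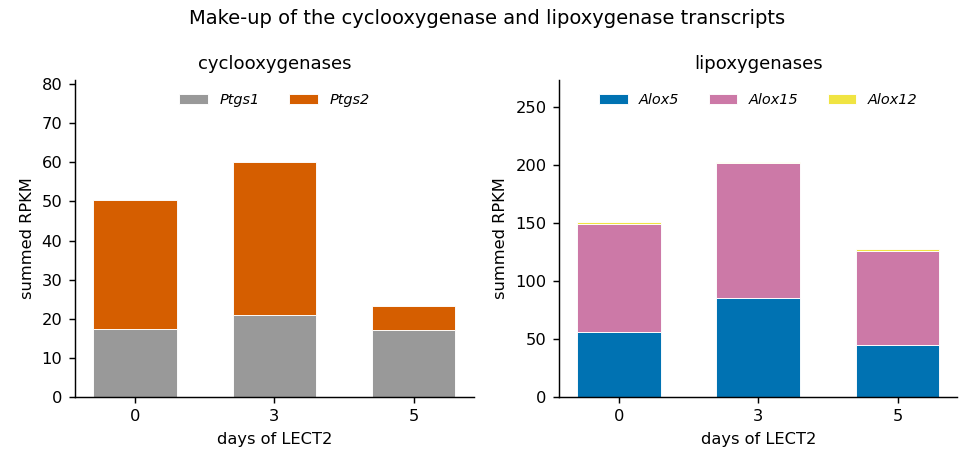
Summed RPKM of the cyclooxygenases (left, Ptgs1 and Ptgs2) and of the lipoxygenases (right, Alox5, Alox15 and Alox12) as stacked bars, by days of LECT2, with 1 library per bar. Ptgs2 is the larger cyclooxygenase segment at 0 and 3 days and the smaller one at 5 days (26.0% of the sum), while Alox15 is the largest lipoxygenase segment in each library.

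Of the lipoxygenases, Alox15 was the most abundant. It oxygenates arachidonic acid at carbon 12 or 15 and is known from eosinophils and resident macrophages. Alox15 (gene ID 11687, chr11:70344152-70352031, minus strand) had 3514, 4268 and 3037 reads, or 93.8, 117 and 81.1 RPKM. The library after 3 days was the highest and that after 5 days the lowest. Its ratio was 0.32 (0.25 to 0.38) at 3 days, -0.21 (-0.28 to -0.14) at 5 days and -0.52 (-0.59 to -0.46) between 3 and 5 days.

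Alox5, which makes leukotriene A4 (gene ID 11689, chr6:116410077-116461178, minus strand), had 2439, 3656 and 1966 reads, or 55.6, 85.4 and 44.8 RPKM. Its order over time was that of Alox15, with larger steps. The ratio was 0.62 (0.55 to 0.69) at 3 days, -0.31 (-0.40 to -0.22) at 5 days and -0.93 (-1.01 to -0.85) between the treated libraries. Alox5 took 36.8%, 42.1% and 35.0% of the summed RPKM of the 3 lipoxygenases, and Alox15 took 62.1%, 57.6% and 63.4%. Alox15 was thus the larger share in each library.

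Alox12, the platelet-type enzyme (gene ID 11684, chr11:70241457-70255353, minus strand), lies 88.8 kb from Alox15 on the same chromosome and had another order over time. It had 72, 30 and 96 reads, or 1.55, 0.662 and 2.07 RPKM. The library after 3 days was the lowest here, and those after 0 and 5 days had overlapping counting intervals. The ratio was -1.11 (-1.89 to -0.59) at 3 days, at percentile 1.61 of the 11325 genes tested. Between 3 and 5 days it was 1.51 (1.04 to 2.29), at percentile 99.8 of 11375 genes. At 5 days against 0 days it was 0.39 (-0.04 to 0.88), 0.10 with TMM scaling and -0.03 with the length trend removed, so no direction can be given there.

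In the leukotriene branch, Alox5ap presents arachidonic acid to Alox5 at the nuclear membrane. Alox5ap (gene ID 11690, chr5:149264767-149288153, plus strand) had 10851, 8878 and 5813 reads, and its level was lower at each later time point. At 5 days it stood at 53.6% of the 0-day level, with a ratio of -0.90 (-0.95 to -0.85). With TMM scaling the ratio was -1.21, past 2-fold, and with the length trend removed it was -0.58. At 3 days the ratio was -0.25 (-0.29 to -0.21), but 0.17 with the length trend removed. The RPKM of Alox5ap was 14.4, 7.87 and 9.59 times that of Alox5 after 0, 3 and 5 days. At 3 days the ratio of Alox5 lay above that of Alox5ap, also with the length trend removed.

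Lta4h, which makes leukotriene B4 (gene ID 16993, chr10:93453411-93484875, plus strand), had 6593, 7213 and 7391 reads, or 206, 230.5 and 230.6 RPKM. On the deposited scale it was the steadiest of the 9 genes. Its ratio was 0.17 (0.12 to 0.21) at 3 days and 0.17 (0.12 to 0.21) at 5 days, and between the treated libraries it was 0.00 (-0.05 to 0.05), or -0.22 with TMM scaling and -0.24 with the length trend removed. At 5 days the sign turned to -0.14 with TMM scaling and to -0.03 with the length trend removed.

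Ltc4s, the glutathione-joining enzyme (gene ID 17001, chr11:50236461-50238616, minus strand), had 18, 5 and 13 reads, or 1.97, 0.561 and 1.43 RPKM. With so few reads its values are imprecise. The ratio was -1.65 (-3.60 to -0.33) at 3 days and -0.44 (-1.62 to 0.64) at 5 days, the latter being 0.12 with the length trend removed. Between 3 and 5 days it was 1.21 (-0.24 to 3.18), so a difference between the treated libraries was not detectable at this depth.

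Ltb4r1, the receptor of leukotriene B4 on neutrophils and other leukocytes (gene ID 16995, chr14:55765962-55768494, plus strand), had 1472, 1652 and 1192 reads, or 68.1, 78.4 and 55.2 RPKM. As for Alox5 and Alox15, the highest library was that after 3 days and the lowest that after 5 days. The ratio was 0.20 (0.10 to 0.30) at 3 days, -0.30 (-0.41 to -0.19) at 5 days and -0.50 (-0.61 to -0.40) between 3 and 5 days. Annotated genes overlap Ptgs1, Alox5ap and Ltc4s on the opposite strand, and the library kit does not keep strand, so reads from such partners cannot be told apart. Positions are those of GENCODE M21 (GRCm38).

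All 9 genes reached 1 RPKM in at least 1 library of each comparison and were counted. Alox12 and Ltc4s were under 1 RPKM at 3 days and entered the comparisons with that library through the other one. At 3 days 0 of the 9 were at least 2-fold higher than at 0 days (background 4.08% of all genes tested), and 2, Alox12 and Ltc4s, were at least 2-fold lower (background 2.41%), a count that became 0 with a pseudocount of 1 or a minimum of 5 RPKM. At 5 days 0 were at least 2-fold higher than at 0 days (background 15.5%), and Ptgs2 alone was at least 2-fold lower (background 5.91%). Alox5ap was also past 2-fold with TMM scaling (-1.21), with median-of-ratios scaling (-1.20) and with the 100 most abundant genes left out (-1.10). Between 3 and 5 days Alox12 and Ltc4s, the latter with an interval that holds 0, were at least 2-fold higher (background 1.95%) and Ptgs2 was at least 2-fold lower (background 3.45%). Alox5 was also past 2-fold lower with TMM scaling (-1.15), with median-of-ratios scaling (-1.15), with the 100 most abundant genes left out (-1.03) and with the length trend removed (-1.20). The 2 higher became 0 with a pseudocount of 1 or a minimum of 5 RPKM. With so few genes these counts are a description.

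The counting intervals showed smaller differences. At 3 days, 6 of the 9 intervals lay above 0 (41.1% of all genes tested) and 3 lay below (26.2%). At 5 days, 1 lay above 0 (55.1%), 5 below (22.3%) and 3 held 0. Between the treated libraries, 1 lay above 0 (54.4%), 6 below (15.3%) and 2 held 0. The median ratio of the 9 genes was 0.20 at 3 days and -0.30 at 5 days, while that of all genes was 0.09 and 0.31. With TMM scaling the medians of the 9 genes were 0.12 and -0.61, and 8 of 9 ratios at 5 days were below 0. Their median at 5 days was under that of all genes with and without scaling, which is a description of these libraries.

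Ptgs2, Alox5, Alox15 and Ltb4r1 had an interval above 0 at 3 days and below 0 at 5 days, both against the same 0-day library. Such a pattern was seen for 2.21% of 11272 genes. It was small in size for Alox15 and Ltb4r1, and for Ptgs2 the 3-day part did not hold with the length trend removed.

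**Figure D3:**
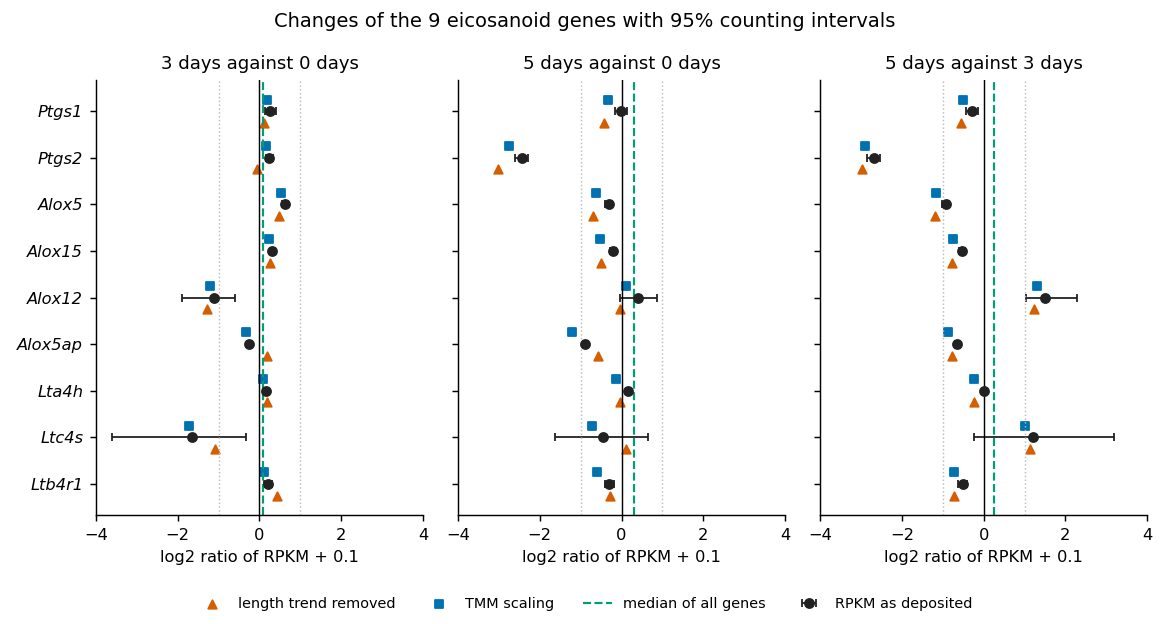
Log2 ratio of RPKM + 0.1 of each of the 9 genes in the 3 comparisons of libraries, as deposited (circles with 95% counting intervals), with TMM scaling (squares) and with the length trend removed (triangles). The dashed line is the median of all genes and the dotted lines mark 2-fold. Ptgs2 lies at -2.44 (deposited), -2.74 (TMM) and -3.03 (length trend removed) at 5 days, and Alox12 at -1.11, -1.20 and -1.28 at 3 days.

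Other genes of the pathway were counted from lists of 64 symbols, of which 60 had a row. Among the 43 tested at 3 days, 2 (Abcc4 and Cysltr1) were at least 2-fold higher and 1 (Ptger3) was lower, against 4.08% and 2.41% of all genes. Each of these 3 calls was lost with a pseudocount of 1, and that of Abcc4 also with TMM scaling (0.94). Among the 44 tested at 5 days, 4 were at least 2-fold higher and 7 were lower, against 15.5% and 5.91% of all genes, with a median of 0.01 (-0.30 with TMM scaling). The leukotriene list holds partners of the enzymes, an exporter, breakdown enzymes and receptors. Of its 11 tested genes, 2 were higher and 5 lower by 2-fold or more at 5 days, with a median of -0.999 (-1.31 with TMM scaling). The 9 eicosanoid genes had a median of -0.30 in the same comparison.

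Fpr2, a receptor of lipoxin A4 and of many peptides on neutrophils, had the lowest ratio of that list, at 292, 255 and 61.2 RPKM and -2.25 (-2.35 to -2.17) at 5 days. This is close in size to the ratio of Ptgs2. Mgst1 and Mgst2, microsomal glutathione transferases related to Ltc4s and Alox5ap, had ratios of -1.25 and -1.44. With the length trend removed both were short of 2-fold, at -0.99 and -0.88. Mgst2, which can also make leukotriene C4, stood at 152, 96.0 and 56.0 RPKM, well above Ltc4s in each library. Ggt1 and Ggt5, gamma-glutamyl transferases that can trim leukotriene C4, had ratios of -1.29 and -2.01, both from levels under 5 RPKM. Both were under 1 RPKM at 5 days and so were tested through the 0-day library. The 2 higher genes were Cysltr1, a receptor of cysteinyl leukotrienes, with 1.05, 2.42 and 3.63 RPKM and a ratio of 1.69 (1.30 to 2.30), and Dpep2, a dipeptidase, with 1.22 (0.75 to 1.81). Dpep2 was under the 2-fold limit with TMM scaling, at 0.92. Cotl1, an actin-binding partner of Alox5 and the most abundant gene of the list by mean over the libraries, stood at 263, 327 and 281 RPKM. Its ratio at 5 days was 0.09, or -0.21 with TMM scaling.

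On the prostaglandin side, 0 of 10 tested synthases and breakdown enzymes were 2-fold higher or lower at 5 days (background 15.5% and 5.91%), with a median of -0.08, or -0.39 with TMM scaling. Ptges, an inducible prostaglandin E synthase, had a ratio of -0.52, and passed 2-fold with the length trend removed, at -1.05. The most abundant of them, Ptges3, a cytosolic prostaglandin E synthase that is also a co-chaperone, stood at 70.1, 58.3 and 75.3 RPKM. Of 7 tested receptors and transporters, Abcc4, which exports prostaglandins, was higher at each later time point, at 4.57, 9.40 and 15.9 RPKM and 1.78 (1.64 to 1.96) at 5 days. Ptger4, a prostaglandin E2 receptor, was lower, at 22.3, 17.3 and 10.7 RPKM and -1.05 (-1.22 to -0.90). Ptger1, another prostaglandin E2 receptor and the most abundant, was not past 2-fold, at 23.3, 33.4 and 34.9 RPKM. Ptger1 and Ptger4 thus began at like levels and differed 3.26-fold in RPKM at 5 days. The other prostaglandin E2 receptors were far lower, Ptger2 at 0.735, 1.33 and 1.40 RPKM and Ptger3 at 2.13, 1.01 and 1.54 RPKM.

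Of 10 tested genes of a list of phospholipases and other lipases, Mgll, which cleaves monoacylglycerols, was lower. It stood at 26.7, 19.6 and 10.7 RPKM, with a ratio of -1.32 (-1.46 to -1.20) at 5 days. The other 9 were within 2-fold at 5 days, and the background was 5.91% lower and 15.5% higher in this and the next 2 lists. Pnpla2, a triglyceride lipase, was the most abundant by mean over the libraries, at 27.5, 35.3 and 38.6 RPKM. The median of this list was 0.36, or -0.12 with the length trend removed. Of the 2 tested lipoxygenases outside the 9 genes, Alox12e was the higher, at 3.07, 2.52 and 2.48 RPKM, and neither was past 2-fold. Of 4 tested genes of a list of epoxygenases, epoxide hydrolases and related P450 enzymes, Cyp4f16, of a family better known for omega-hydroxylation, was higher. It stood at 3.12, 5.18 and 8.64 RPKM, with a ratio of 1.44 (1.15 to 1.81). Ephx1, an epoxide hydrolase and the most abundant by mean over the libraries, stood at 12.4, 9.20 and 8.42 RPKM.

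**Figure D4:**
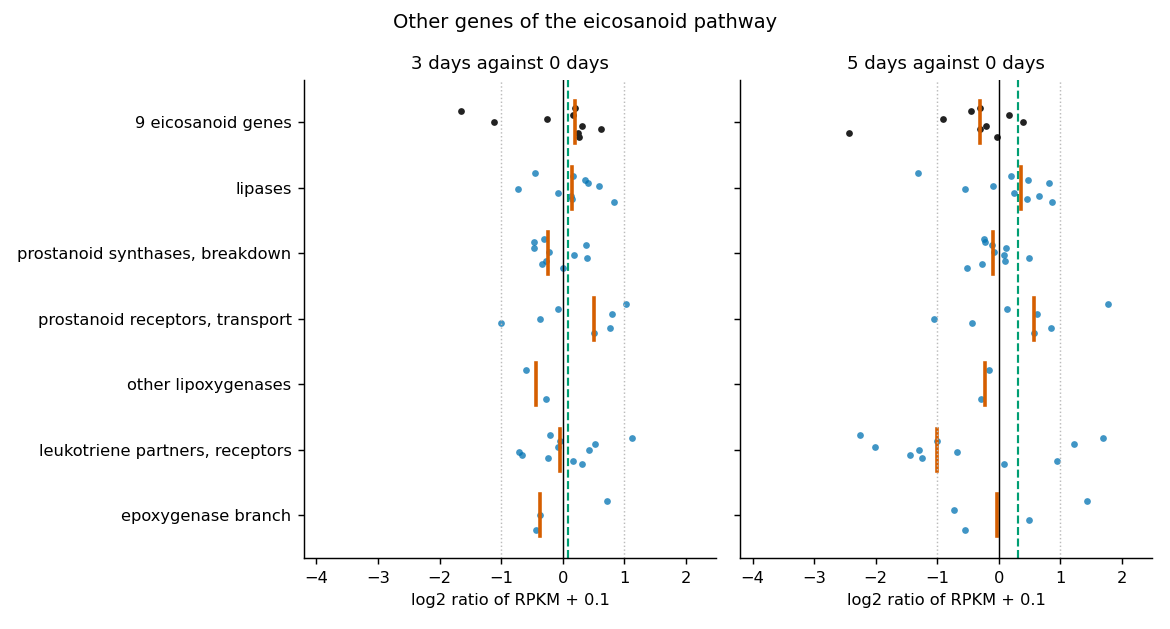
Log2 ratio of RPKM + 0.1 at 3 days (left) and 5 days (right) against 0 days for each tested gene of the eicosanoid pathway lists (points), with the median of each list (orange bar), the median of all genes (dashed line) and 2-fold (dotted lines). At 5 days the leukotriene list spreads furthest below 0, with a median of -0.999, and the 10 prostanoid synthases and breakdown enzymes lie within 2-fold.

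In a bulk library, fewer cells of a type and less RNA per cell cannot be told apart, so markers of the cells that carry these genes are given beside them. The 5-day library had far less RNA of late neutrophil genes. Of 12 late neutrophil markers 11 were tested, and each of these was 2-fold lower or more against 0 days (background 5.91%), from -1.08 for Ngp, a granule protein, to -3.999 for Il1r2, a decoy receptor, with a median of -1.88. Csf3r, the receptor of G-CSF, was under 1 RPKM in each library and was not tested, with a ratio of -0.25 (-1.25 to 0.59). Their summed level was 150033, 115996 and 41373 RPKM over the 3 libraries, and none was at 3 reads or fewer. At 3 days their median was -0.26, or 0.13 with the length trend removed. The most abundant was S100a9, a calcium-binding protein, with a ratio of -2.14. The ratio of Ptgs2 at 5 days lay inside this range, while those of Alox5, Alox5ap, Alox15, Lta4h and Ltb4r1 (-0.90 to 0.17) lay above it. Promyelocyte markers had a median of 0.45, or 0.14 with TMM scaling, with the counting intervals of 4 of 5 above 0 (55.1% of all genes), from Ms4a3 at 0.04 to Mpo, a peroxidase, at 1.51. The part of cell composition in the ratios of the eicosanoid genes was not tested.

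Eosinophil markers, from a lineage known for Alox15 and Ltc4s, had a median of 0.20 at 5 days, or -0.11 with TMM scaling. Their summed level was 4132, 3716 and 4310 RPKM, and of 8 tested the ends of the range were Prg2 at -0.08 and Epx at 1.18, both granule proteins. Mast cell and basophil markers, from the other cells known for Ltc4s, had a median of -0.40, or -0.71 with TMM scaling, and a summed level of 1005, 763 and 722 RPKM, from Hdc at -1.87 to Ms4a2 at 1.78, with Prss34, a protease of basophils and the most abundant, at -0.13. Of the 7 tested, 2 were at least 2-fold lower, Hdc among them (background 5.91%), and 1, Ms4a2, was higher (background 15.5%). The ratio of Hdc also lay inside the range of the late neutrophil markers. The mast cell protease Mcpt4 was at 3 reads or fewer in each library. For macrophage and monocyte markers the median was 0.97, or 0.67 with TMM scaling, with 7 of 15 at least 2-fold higher (background 15.5%), or 5 with TMM scaling, from C1qa at -0.20 to Siglec1 at 1.95. They summed to 1294, 1472 and 1773 RPKM, and Ly6c2 was the most abundant, with a ratio of 0.29, or -0.02 with TMM scaling. B cell markers had a median of -0.23, or -0.54 with TMM scaling, from Vpreb1, a part of the pre-B cell receptor, at -0.87 to Rag1, a recombinase, at 1.21, and summed to 2075, 1685 and 1509.8 RPKM. The ratio of Alox15 at 5 days was -0.21 (-0.28 to -0.14), and the part of these cells in it was not tested.

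Megakaryocyte and platelet markers are given beside Alox12, whose level was lowest at 3 days. At 3 days the counting intervals of 5 of 8 tested were below 0 (26.2% of all genes), from Pf4, a platelet chemokine, at -2.34 to Gp1bb, a platelet receptor subunit, at 0.02, with a median of -0.63. Between 3 and 5 days the counting intervals of 8 of 9 were above 0 (54.4% of all genes), with a median of 0.80 beside 0.25 for all genes. Their summed level was 44.3, 23.3 and 42.6 RPKM over the 3 libraries. Pf4 stood at 11.3, 2.15 and 6.18 RPKM, and Itga2b, the most abundant, at 10.8, 8.34 and 11.2 RPKM. The level of Alox12 was 42.7% of its 0-day level at 3 days, beside a summed marker level of 0.525 times its own 0-day value. Most of the fall in that sum lay in Pf4 and Ppbp, the 2 of 8 tested that were at least 2-fold lower (background 2.41%). Ppbp stood at 9.31 and 4.12 RPKM after 0 and 3 days. Whether the ratio of Alox12 follows from megakaryocytes and platelets was not tested.

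Immediate early genes, which respond quickly to many stimuli as Ptgs2 does, were lower at 5 days as well. Each of the 12 was 2-fold lower or more against 0 days (background 5.91%), from -1.14 for Fos to -3.05 for Egr1, both transcription factors, with a median of -1.70. Their summed level was 4727, 4305 and 1529 RPKM, so that, as for Ptgs2, the 3-day library was near the 0-day one and the 5-day library was not. The most abundant, Zfp36, an RNA-binding protein, had a ratio of -1.64. Of 10 immediate early genes with a promoter window, 7 held the CRE half-site that is also in the Ptgs2 sequence above (20.8% of all windows). The GC box was in 9 (35.7%), the E-box in 2 (7.15%) and the C/EBP palindrome in 0 (0.183%). The windows behind these shares were not matched for base composition, and regulation shared with Ptgs2 was not tested. Some motifs had no match in the 300-base window of Ptgs2, and sequence outside the windows was not searched. Of these motifs, the kappa-B site was in 5 of the immediate early genes (8.46%) and the CArG box in 2 (1.63%). The TATA box was in 2 (13.6%) and the full CRE in 1 (1.79%). Late neutrophil markers and immediate early genes were lower in one and the same library, so their parts in the ratio of Ptgs2 cannot be told apart.

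**Figure D5:**
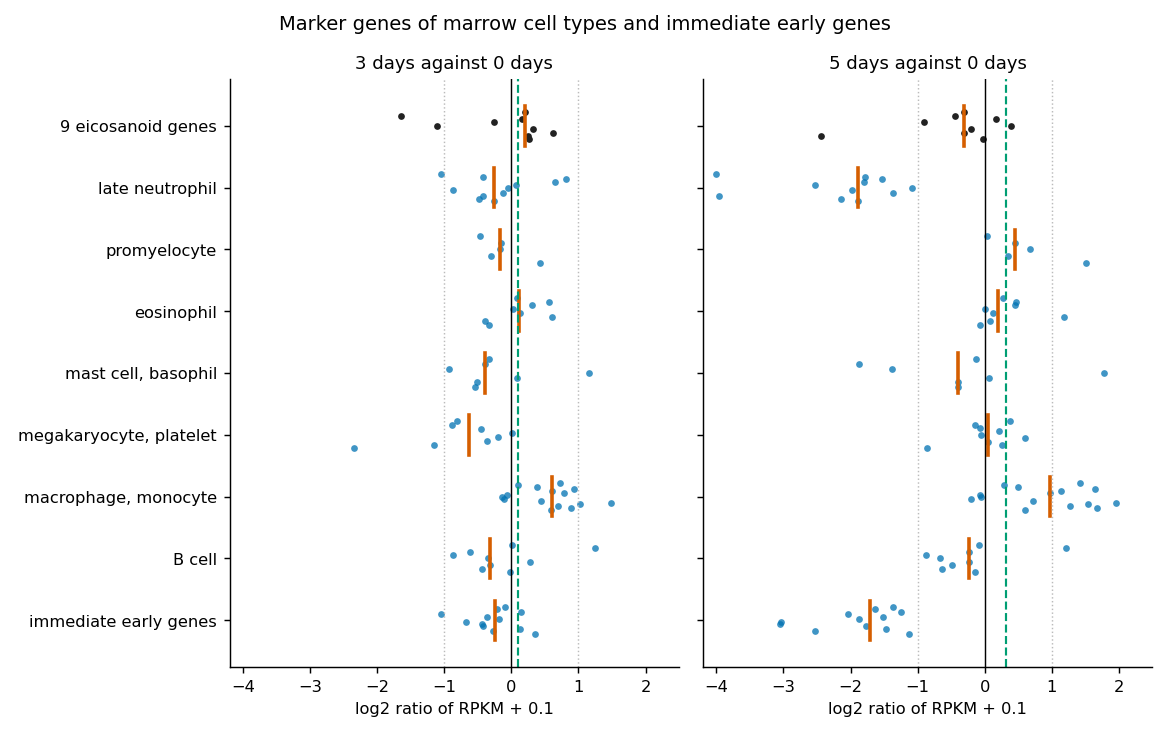
Log2 ratio of RPKM + 0.1 of each tested gene of the cell type marker lists and of the immediate early genes (points) at 3 days (left) and 5 days (right) against 0 days, with list medians (orange bars), the median of all genes (dashed line) and 2-fold (dotted lines). Late neutrophil markers and immediate early genes lie below -1 at 5 days, and megakaryocyte and platelet markers lie mostly below 0 at 3 days.

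The genes whose 2 ratios against 0 days were nearest to those of each eicosanoid gene were taken from 8192 genes whose mean was 5 RPKM or more. Likeness is the Euclidean distance between the log2 ratios and rests on 3 libraries. Nearest to Ptgs2 were Snai1 (distance 0.196), Mmp8 (0.204) and Fpr1 (0.229), with 0 genes within 0.1. Snai1 encodes a transcription factor, Mmp8 the neutrophil collagenase and Fpr1 the formyl peptide receptor of neutrophils. Nearest to Alox12 was Ppbp (0.140), a chemokine of platelets, with 9.31, 4.12 and 11.2 RPKM, followed by Slc15a2 (0.256) and 2810008D09Rik (0.323), again with 0 genes within 0.1. Ppbp is one of the platelet markers above and Mmp8 one of the late neutrophil markers.

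For the other genes the number of close neighbours varied. Alox5 had 6 genes within a distance of 0.1, the nearest being Rnf11, Kbtbd7 and Ccpg1. Alox5ap had 13, the nearest being Gabarapl2, Orm1 and Sp140, and Alox15 had 29, the nearest being Slc2a6, Jdp2 and Cnn2. Ltb4r1 had 37 genes within this distance. Ptgs1 had 46, with Tmem181c-ps, Mgea5 and Cdc14a first, and Lta4h had 158, with Skiv2l, Pex7 and Casd1 first. Ltc4s had 0, its nearest being Bola1, Rps4y2 and Rsph9, but its 5 to 18 reads make its place in this ranking imprecise.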

How the data were processed

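BM cells of 3 groups (0, 3 and 5 days of LECT2) were measured by RNA-seq with 1 library each. The submitters' processing notes name the genome build mm8, the methods name Cufflinks for quantitation, and the aligner is not given in the sources used here. The authors deposited, for each pair of libraries, a table of whole read counts per gene, of RPKM, and of their own log2 ratio, p-value and FDR. The deposited RPKM equalled counts divided by gene length and library total within 0.1%, apart from 18 rows at 0 days and 14 at 3 days with at most 36 reads, and no eicosanoid gene was among them. The authors listed genes without reads at 0.01 RPKM, set to 0 here. Their deposited log2 ratio, p-value and FDR columns hold their own comparison of 2 libraries and were not used.

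Log2 ratios were computed with a pseudocount of 0.1 RPKM, and genes with at least 1 RPKM in either library of a comparison were counted as tested, with a limit of 2-fold and no statistical test. At 3 reads or fewer no fold is given. With several rows for a symbol, that of highest mean RPKM was used. Alternatives were pseudocounts of 1 and 0.01, TMM scaling (edgeR 4.0.16), median-of-ratios scaling (DESeq2 1.42.0), the reads outside the 100 most abundant genes, removal of a lowess trend on gene length (span 0.3), the sum of all rows, other minimum levels (5 RPKM or none) and limits of 1.5-fold and 4-fold. These tools were used for scaling only. The steps were tested on simulated counts.

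The genes and all lists were chosen with earlier results of these data known. Named were the 9 genes, the list genes past 2-fold at 5 days, the most abundant gene of each list, the ends of each marker range and the 3 genes nearest to each of the 9, of which those of Ltb4r1 are not reported here. Ptgs2 and Ptgs1 sequences, Mgst2 and Ltc4s side by side, Ptges, Ptger2, Ptger3, Csf3r, and Pf4 and Ppbp levels were chosen after their values were seen. Promoter windows came from RefSeq tables and positions from GENCODE M21, both on GRCm38 and so another build than that of the notes. Python 3.11.15, statsmodels 0.14.6, scipy 1.17.1 and R 4.3.3 were used.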

Additional observations from a re-analysis of the deposited data

Results flagged for a closer look

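Opposite signs at 3 and 5 days, both against the one 0-day library and with both counting intervals off 0, were seen for 4 of the 9 genes. For Ptgs2 the log2 ratios were 0.24 (3 days) and -2.44 (5 days). For Alox5 it was 0.62 and -0.31. For Alox15 it was 0.32 and -0.21, and for Ltb4r1 it was 0.20 and -0.30. The difference between the time points was not tested, since each had 1 library, and both ratios of a gene share the 0-day value. Of all genes tested, 2.21% had this order of signs.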

How the results depend on the processing

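No paired analysis was possible because each time point had 1 library, and for the same reason no library could be left out. Of 189 ratios of the 9 genes under another setting, 114 stayed inside the counting interval of the main value, 69 left it with the same sign or from an interval that held 0, and 6 turned the sign of a ratio whose own interval did not hold 0. Those 6 were Ptgs2 at 3 days (-0.070) and Alox5ap at 3 days (0.17) with the length trend removed, and Lta4h at 5 days with TMM (-0.14), median-of-ratios (-0.13), the 100 most abundant genes left out (-0.036) and the length trend removed (-0.028). The ratio of Ptgs2 at 5 days was -2.28 with a pseudocount of 1, -2.74 with TMM, -2.73 with median-of-ratios, -2.64 without the 100 most abundant genes and -3.03 without the length trend.

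Among the 9 genes, the median at 3 days was 0.12 with TMM and 0.11 with the 100 most abundant genes left out. At 5 days it was -0.61 with TMM, -0.60 with median-of-ratios, -0.50 with the 100 most abundant genes left out and -0.42 without the length trend. The 2 genes at least 2-fold lower at 3 days became 0 with a pseudocount of 1, a minimum of 5 RPKM or a 4-fold limit. The 1 lower at 5 days became 2 under each of the 3 scalings and at 1.5-fold, where 1 was also higher at 3 days.

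Among the other pathway genes, the 2 higher at 3 days became 0 with a pseudocount of 1 or at 4-fold, 1 under each scaling, without the length trend and at 5 RPKM, 5 with no minimum and 6 at 1.5-fold. The 1 lower became 0 with a pseudocount of 1, without the length trend, at 5 RPKM and at 4-fold, 2 under each scaling and with no minimum, and 5 at 1.5-fold. At 5 days the 4 higher became 2 at 5 RPKM, 7 with no minimum, 0 at 4-fold and 10 at 1.5-fold, and the 7 lower became 2 at 4-fold. Their median at 5 days was -0.38 with TMM, where the minimum level was applied after scaling, -0.37 with median-of-ratios and -0.27 with the 100 most abundant genes left out.

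The list medians given next turned their sign from a value larger than the median counting error of the list's genes. Some medians within that error, not given, turned as well. Without the length trend, they were -0.12 for the lipases at 5 days, 0.13 for late neutrophil and 0.21 for promyelocyte markers at 3 days, and between 3 and 5 days -0.035 for eosinophil and -0.046 for mast cell and basophil markers. With no minimum they were -0.16 for prostanoid receptors at 5 days and -0.012 for mast cell and basophil markers between 3 and 5 days, and with a minimum of 5 RPKM -0.13 for epoxygenases and related enzymes between 3 and 5 days. For eosinophil markers at 5 days they were -0.11 with TMM, -0.10 with median-of-ratios and -0.00058 with the 100 most abundant genes left out, and between 3 and 5 days -0.055 with TMM and -0.049 with median-of-ratios. For mast cell and basophil markers between 3 and 5 days they were -0.094 with TMM and -0.088 with median-of-ratios. The causes were not tested. Ltc4s, at 5 to 18 reads, and Alox12, at 30 to 96, are limited by depth.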

Other observations

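Some pathway genes had few reads. Ltb4r2, the low-affinity receptor of leukotriene B4, had 0, 3 and 7 reads after 0, 3 and 5 days. Cysltr2, a receptor of cysteinyl leukotrienes, had 1, 9 and 15 reads, lowest at 0 days like Cysltr1 (45, 101 and 155 reads). Ptgis, the prostacyclin synthase, had 4, 0 and 0 reads, and Ptgds, a prostaglandin D synthase, had 1, 1 and 0. The other prostaglandin D synthase, Hpgds, had 68, 89 and 98 reads. Pla2g5, Pla2g10, Ptgds and Slco2a1 were at 3 reads or fewer in each library, so they were at the limit of detection at this depth.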
